A study of Mus musculus with 7 samples.

Results

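Heat shock proteins of the cytosol and the mitochondrion were examined in liver RNA of old mice. The set was defined by name as 10 genes, Hspa8, Hspa1b, Hspa4, Hsph1, Hsp90aa1, Hsp90ab1, Hspb1, Dnajb1, Hspd1 and Hspe1, and a gene entered when a probe set carried its symbol alone. Of these, 9 genes were measured by 15 probe sets, out of 8251 genes and 10833 singly named probe sets in all. Hsp90ab1 had no such probe set and was dropped. The samples were livers of 7 female mice, described by source and title as phenotypically normal (+/+ or +/df), with free access to food and an age at death of 24 to 26 months. The df allele is the recessive Ames dwarf mutation, so homozygous and heterozygous animals of normal size could be mixed here. The free-text description of the same samples names the dwarf genotype (df/df) instead, and the titles were followed here. Each RNA was read on 1 Affymetrix U74Av2 array. All 7 arrays formed 1 group, so the data give a level for each gene and its spread between animals, and no contrast. The titles number the animals 1, 2, 3, 4, 6, 7 and 8, and those numbers name the replicates. Separate animals are implied by the numbering but not stated, so p-values and SDs measure the spread between these RNAs, which may be partly technical.

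Heat shock proteins are chaperones: they bind unfolded polypeptides, keep them from clumping and help them reach or regain their shape. The Hsp70 proteins work in a cycle of ATP hydrolysis, started by J-domain partners such as Dnajb1 and reset by exchange factors such as Hspa4 and Hsph1, and pass some clients on to Hsp90. Inside mitochondria, Hspd1 forms a barrel that is closed by a lid of Hspe1. Under heat or other protein damage, heat shock factor 1 binds repeated GAA units, the heat shock elements, in front of many of these genes, whereas Hspa8 and the mitochondrial pair are also made in large amounts without stress. In liver the inducible members are known to follow feeding, body temperature and the time of day.

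The promoter stretches that hold such elements are shown because the members are often treated as 1 coregulated group. RefSeq windows of assembly GRCm38.p6 were found for 7 of the 10 genes, and the 250 bases before the transcript start were searched on both strands. Hspa8, Hsp90aa1 and Hsp90ab1 had no window in the table. The motif of 3 units was GAANNTTCNNGAA, or TTCNNGAANNTTC on the other strand, and the motif of 2 units was GAANNTTC or TTCNNGAA. The shorter motif lies inside the longer one. At the most upstream start of each gene, 4 of 7 member windows held a motif of 2 units, against 13% of 27025 genes in the table. The longer motif was found in 1 of these 7, against 0.403% of all genes. Capitals below mark the bases of the motifs, and each sequence reads 5′ to 3′ on the strand of its gene.
Hspa1b, chr17:34959295-34959382, minus strand: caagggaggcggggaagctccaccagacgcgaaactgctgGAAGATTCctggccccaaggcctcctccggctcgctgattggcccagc
Hsph1, chr5:149636337-149636409, minus strand: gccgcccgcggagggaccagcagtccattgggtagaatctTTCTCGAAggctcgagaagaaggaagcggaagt
Hspb1, chr5:135887762-135887869, plus strand: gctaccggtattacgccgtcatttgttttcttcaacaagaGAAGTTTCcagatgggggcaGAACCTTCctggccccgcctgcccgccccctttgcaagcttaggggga
Hspe1, chr1:55088053-55088082, plus strand: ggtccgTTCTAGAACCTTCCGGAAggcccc
Hspe1 and Hspd1 are neighbours that are read in opposite directions, and the Hspe1 stretch lies between the Hspe1 start and the inner of the 2 Hspd1 starts in the table. Its unbroken run of overlapping motifs, chr1:55088059-55088076, begins 89 bases before the Hspe1 start. Read on the Hspd1 strand the same run begins 144 bases before that inner start. The windows of Hspa4 and Dnajb1 held neither motif. A match is a description of letters, and no binding was measured.

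The arrays were alike in scale and differed in their spike-in controls. Deposited trimmed means were equal to within 500.36 to 500.39, 3' to 5' ratios lay between 0.788 and 0.907 for Gapdh and between 1.31 and 1.78 for beta-actin, and bacterial spike-in controls put replicates 1 to 4 above replicates 6 to 8 by at least 0.40 on the log2 scale. Over the 21 relations of members with these 3 measures, none had an unadjusted exact permutation p under 0.05 for Pearson's r. The smallest was 0.097 for Dnajb1 and the spike-in level (r = -0.644, adjusted p = 0.799, rho = -0.821), and r was -0.115 with the means of the 2 spike-in sets removed. Sets of 4 and 3 arrays are too small for a value within each. The label of liver was checked on 10 hepatocyte markers, all of which were above the floor described below on all arrays, for example Alb (albumin) at 31853 ± 3080 (SD, n = 7) and Ass1 (a urea cycle enzyme) at 1208 ± 148. In whole tissue, more cells of a type and more RNA per cell cannot be told apart.

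Signals below are deposited intensities on a linear scale, brought to a common trimmed mean of 500.4. They describe probe sets, so signals of different genes are not ranked against each other. Values under a floor of 50.04, which is 0.1 of that mean, were raised to it before log2 was taken, and genes with a mean of at least 200.1 were tested for spread, 4481 in all. The filter passed 7 members. Hspa1b, at a mean of 156, and Hspb1, at 45.3, fell below it.

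**Figure D1:**
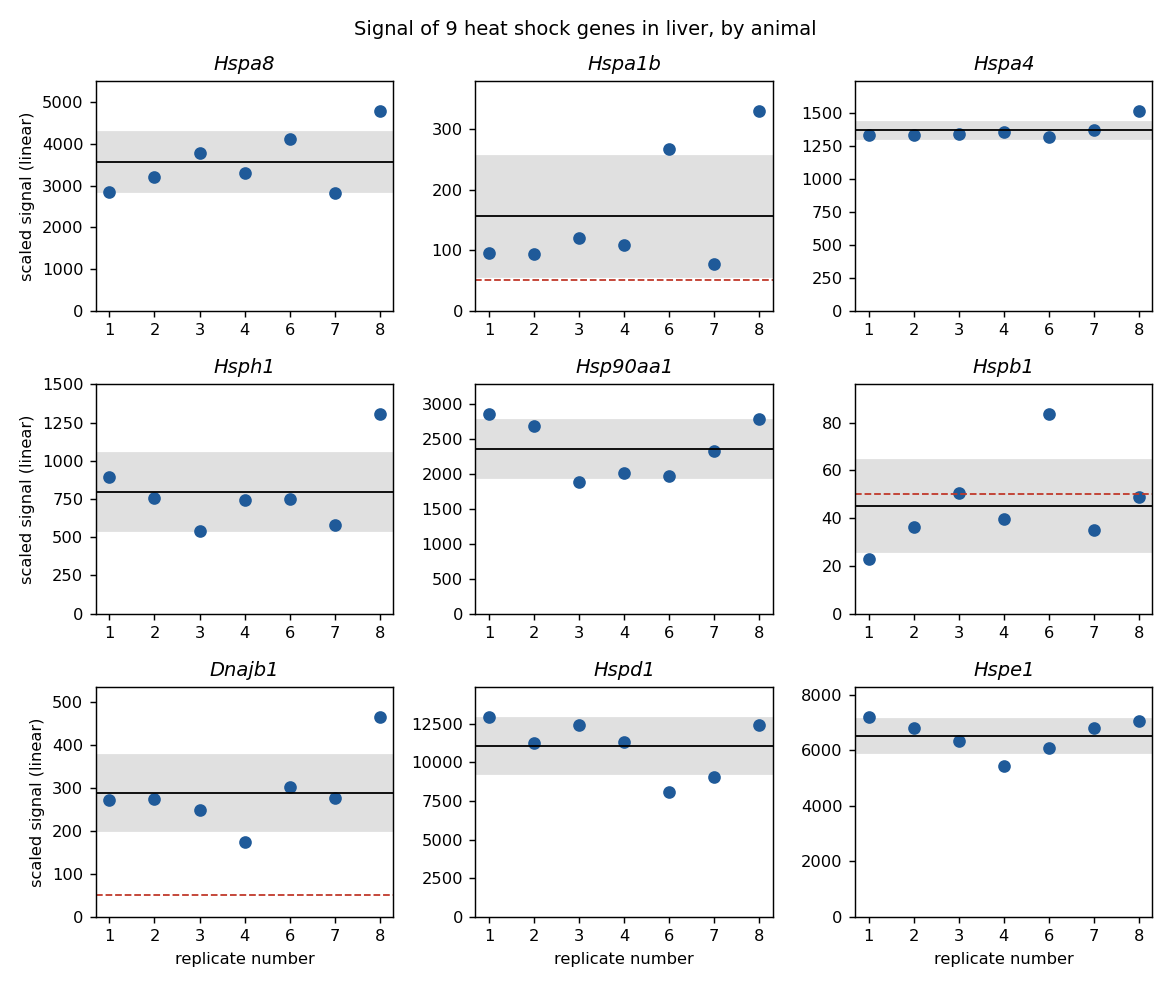
Scaled signal (linear, each axis from 0) of the probe set used for each of 9 heat shock genes, by replicate number. Points are single arrays, the black line is the mean, the grey band is the mean ± SD over 7 arrays, and the red dashed line, drawn for the dim genes, is the floor of 50.04; Hspa8, Hspa1b, Hspa4, Hsph1 and Dnajb1 have their highest point on replicate 8.

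Hspa8 and Hspa1b, both Hsp70 genes of the cytosol, shared 1 pattern, with replicate 8 highest, replicate 6 next and replicate 7 lowest. Hspa8 (NCBI gene 15481) encodes the constitutive Hsc70, which folds new proteins and strips clathrin from vesicles. Its signals were 2856, 3215, 3781, 3310, 4123, 2828 and 4792 on replicates 1, 2, 3, 4, 6, 7 and 8, a mean of 3558 ± 718 (SD, n = 7). Replicate 8 was 1.47-fold above the median of the other 6 arrays. Hspa1b (NCBI gene 15511) encodes an inducible Hsp70 that rises strongly in heat or proteotoxic stress. Its signals were 95.8, 92.9, 119, 109, 268, 76.4 and 330.1 in the same order, a mean of 156 ± 100.2. Replicates 6 and 8 stood well above the other 5, which lay between 76.4 and 119, and the whole range was 4.32-fold. All 7 values were above the floor but near the dim end of the array, where signal and background are hard to separate.

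Hspa1b and Hspa8 followed each other closely. Pearson's r of their log2 signals was 0.936 (exact permutation p = 5.95e-04, two-sided, n = 7) and rho was 0.964 (p = 0.003). Adjusted over the 8 relations of Hspa1b that were computed, 7 with tested members and 1 with Hspa1a, the p for r was 0.005, and no other of the 8 passed. This family was added after the files were seen, because Hspa1b had missed the filter. With the filter lowered to 0.2 of the trimmed mean, an alternative listed from the start, Hspa1b entered the planned family. The pair then had an adjusted p of 0.017 over 28 pairs, the sole pair that passed. Hspa1b reached that filter, a mean of 100.1, only through replicates 6 and 8, the arrays on which it was high. With no filter the adjusted p of the pair was 0.021 over 36 pairs. Without any 1 array r lay between 0.872 and 0.971, with adjusted p from 0.011 to 0.033. Without replicates 6 and 8 together, the 2 arrays farthest from the median of Hspa1b, r was 0.856 over 5 arrays but no longer passed (exact permutation p = 0.058, adjusted p = 0.333). Only 120 pairings of 5 arrays exist, so a single pair could hardly pass adjustment over 8 relations, and this adjusted p decides nothing. With the means of the 2 spike-in sets removed r was 0.932. Hspa1a, a near-identical neighbour of Hspa1b, had signals of 148, 42.1, 127, 169.5, 106, 34.4 and 219.8, and its r with Hspa1b was 0.585 (exact permutation p = 0.112, adjusted p = 0.266). It was likewise highest on replicate 8 and lowest on replicate 7, but not raised on replicate 6. Its values on replicates 2 and 7 were below the floor, and they entered this r without being raised to it. Transcripts of the 2 genes are so alike that their probe sets may each read both.

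**Figure D2:**
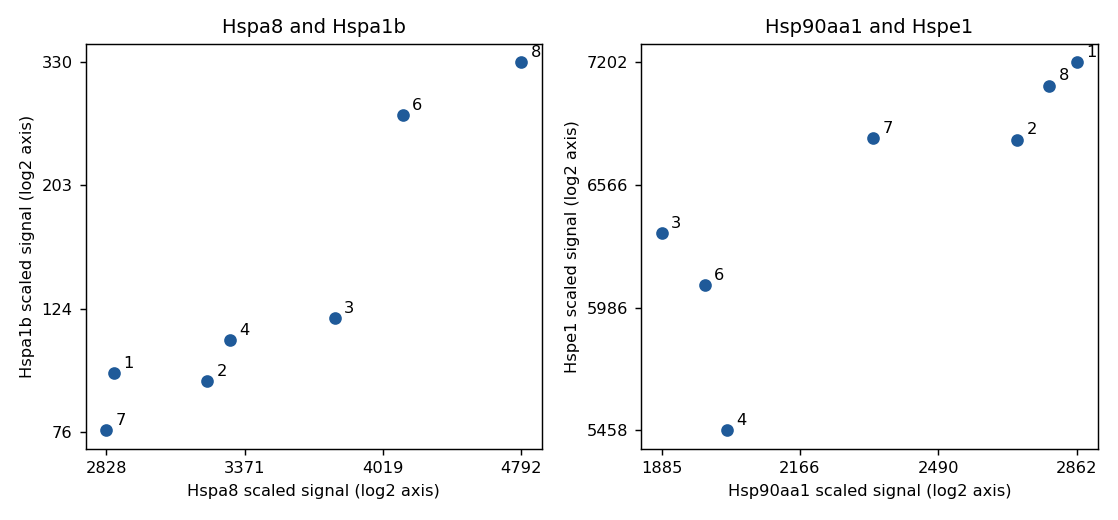
Scaled signals of Hspa8 and Hspa1b (left) and of Hsp90aa1 and Hspe1 (right), each point 1 array marked with its replicate number, on log2 axes. Replicates 6 and 8 are at the upper right for Hspa1b and Hspa8 (r = 0.936), while replicates 1, 2 and 8 are at the upper right for Hsp90aa1 and Hspe1 (r = 0.814).

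The 3 members that act as partners of Hsp70, Hsph1, Dnajb1 and Hspa4, also had their highest signal on replicate 8. Hsph1 (NCBI gene 15505), the Hsp110 protein that swaps ADP for ATP on Hsp70 and helps to dissolve aggregates, had signals of 897, 760, 542, 743, 749, 582 and 1306 on replicates 1, 2, 3, 4, 6, 7 and 8. Its mean was 797 ± 254, and replicate 8 was 1.75-fold above the median of the others. Replicate 6 was not raised for Hsph1, unlike for Hspa1b. Dnajb1 (NCBI gene 81489), an Hsp40 protein that hands clients to Hsp70 and starts its ATP cycle, had signals of 272, 273, 249, 174, 302, 276 and 464, a mean of 287 ± 87.7. Replicate 8 was again the highest, 1.70-fold above the median of the others, and replicate 4 the lowest. Hspa4 (NCBI gene 15525), a relative of Hsph1 with the same exchange role, had signals of 1337, 1336, 1342, 1359, 1320, 1372 and 1517. The first 6 of these spanned only 1320 to 1372, and replicate 8 stood apart by 1.13-fold over their median, a small step that the other arrays' closeness made visible.

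Hspa4 was read by 4 further probe sets, which agreed only in part. Those with the suffixes _g_at and _f_at, which can read related transcripts, were highest on replicate 8 as well, at 562 and 203. These were close to their next values, 544 on replicate 2 and 191 on replicate 1. The remaining pair were highest on replicate 4, at 387, and on replicate 3, at 166. Among the 10 pairs of Hspa4 probe sets r ran from -0.254 to 0.615, and none had an exact permutation p under 0.05. A clear step on replicate 8 was thus shown only by the brightest probe set, the one used here. With all 5 averaged the log2 SD of the gene was 0.13 in place of 0.07.

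Hsp90aa1 (NCBI gene 15519) encodes the inducible Hsp90, which matures kinases and steroid receptors. Its signals were 2862, 2696, 1885, 2013, 1969, 2332 and 2784 on replicates 1, 2, 3, 4, 6, 7 and 8, a mean of 2363 ± 417. Replicates 1, 2 and 8 were high, replicates 3, 4 and 6 low and replicate 7 between them, so replicate 6, high for Hspa1b and Hspa8, was low here. Its r with Hspa8 was -0.164 (exact permutation p = 0.704) and -0.75 without replicate 8. A second probe set of Hsp90aa1, with the suffix _i_at, lay below the floor on all 7 arrays and gave no level.

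The mitochondrial pair did not share 1 order of animals. Hspd1 (NCBI gene 15510), the Hsp60 barrel, had signals of 12917, 11225, 12425, 11301, 8100, 9042 and 12412 on replicates 1, 2, 3, 4, 6, 7 and 8, a mean of 11060 ± 1828. Replicates 6 and 7 were low and the other 5 lay within 11225 to 12917. Hspe1 (NCBI gene 15528), its Hsp10 lid, had signals of 7202, 6794, 6331, 5458, 6088, 6801 and 7077, a mean of 6536 ± 616, with replicate 4 lowest and replicates 1 and 8 highest, as for Hsp90aa1. Their genes share the promoter stretch shown above, for Hspd1 before its inner start only, and whether it had a part in these values was not tested. Across animals r of the pair was 0.298 (exact permutation p = 0.519, rho = 0.464), and 0.598 without replicates 6 and 7. With the spike-in set means removed r was 0.553. Replicates 6 and 7 are both in the low spike-in set, as is replicate 8, where Hspd1 was high. The signals of Hspd1 ranged 1.59-fold and those of Hspe1 1.32-fold. A second Hspd1 probe set, with the suffix _r_at, was far dimmer, at 262 ± 73.8, and ran the other way, with r = -0.742 (exact permutation p = 0.060, adjusted p = 0.534 over 12 pairs of probe sets) and rho = -0.893. The order of the animals for Hspd1 therefore depends on the probe set, and the brighter one is used here.

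Hspb1 (NCBI gene 15507), a small heat shock protein that holds unfolded clients without ATP, was not distinguishable from background on most arrays. Its signals were 22.9, 36.4, 50.7, 39.6, 83.6, 35.1 and 48.7, and 5 of the 7 were below the floor. The highest was replicate 6, the sole member for which this was so.

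**Figure D3:**
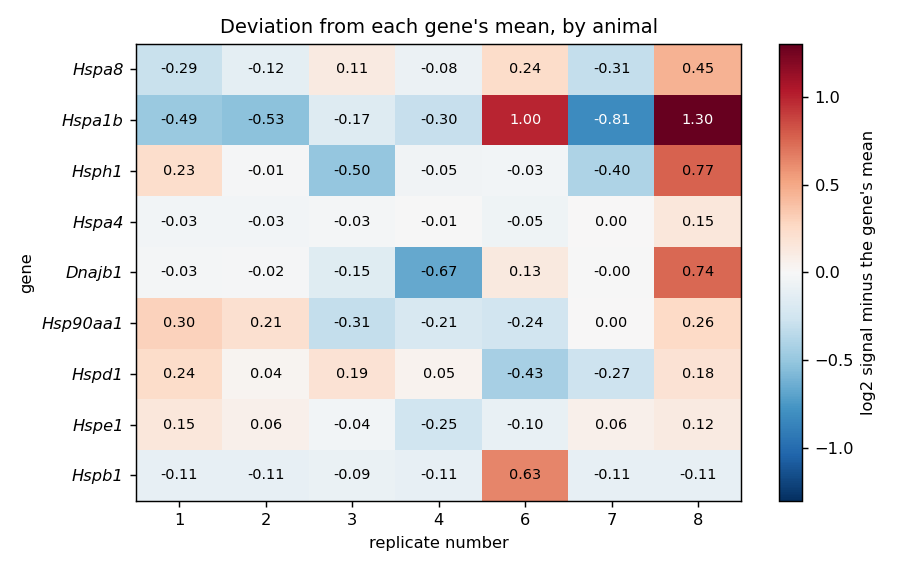
Log2 signal minus the gene's mean over 7 arrays, for 9 heat shock genes (rows) on each replicate (columns), after the floor of 50.04. Replicate 8 is above the mean for 8 of the 9 genes, with 0.77 for Hsph1 and 0.74 for Dnajb1, while replicate 6 is high for Hspa1b and at -0.43 for Hspd1.

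Replicate 8 was singled out after its values were seen. On it all 7 tested members were above their own means, against 50.5% of all tested genes, and 4 of 7 (Hspa8, Hspa4, Hsph1 and Dnajb1) were at their highest, against 13.7% of all tested genes. The mean deviation of the 7 was 0.38 on the log2 scale there, and between -0.17 on replicate 4 and 0.08 on replicate 1 elsewhere. The remaining 3, Hsp90aa1, Hspd1 and Hspe1, were highest on replicate 1. The median deviation of all tested genes on replicate 8 was 0.00. By the ratio of the gap at one end to the whole range, 1 of the 7 members, Hspa4, had 1 array set apart (0.733, above Dixon's critical value for 7 arrays), as had 6.2% of tested genes. Dnajb1 and Hsph1 came close, at 0.559 and 0.535.

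Spread beyond what is usual at a gene's level was not called for any member. In the limma-based F test 0 of 7 members and 0 of 4481 genes (0%) had an adjusted p under 0.05. At an unadjusted p under 0.05 there were 1 member and 301 genes (6.72%). The 1 member was Hsph1, with a log2 SD of 0.42 where 0.17 was expected (limma-based adjusted p = 0.594). It ranked 188th of 4481 by SD over expected SD. Without replicate 8 its SD was 0.27 and its limma-based p was 0.158, so replicate 8 decided this value. By the same limma-based test Hspd1 had 0.26 against 0.13 (limma-based adjusted p = 0.831). For Hspa8 the log2 SD was 0.28 against 0.15 (limma-based adjusted p = 0.861). Dnajb1 had 0.42 against 0.24 and Hsp90aa1 0.26 against 0.15, with adjusted p of 0.947 and 0.948. Hspe1, at 0.14, lay at the SD expected for its level, and Hspa4, at 0.07, was among the steadiest genes, at percentile 1.83 of log2 SD. Thus 6 of 7 members had an SD above the expected one, against 49.1% of all tested genes, and the median log2 SD was 0.26 against 0.18. With all probe sets of a gene averaged the direction of the medians turned, to 0.14 for the members against 0.18 for all genes tested that way. Hspa1b, which missed the filter, had an SD of 0.81. The filter at 0.2 of the trimmed mean was reached only through replicates 6 and 8, where Hspa1b was high. A p from that filter is thus no separate support. With that filter the SD was 2.25 times the expected SD and its unadjusted p was under 0.05 (limma-based adjusted p = 0.754). With no filter it was 2.45 times the expected SD and did not reach that threshold (limma-based adjusted p = 1). With 7 arrays the test is blunt. On simulated data it recovered 0 of 200 genes with the SD raised 2, 3 or 5 times, and 83% at 10 times. These rises multiply a gene's true SD, whereas the largest observed SD over expected SD of a tested member was 2.49, for Hsph1. The measures are not the same, but with so few genes recovered the count of 0 members is uninformative. A p that misses the threshold does not show that these genes varied like others.

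**Figure D4:**
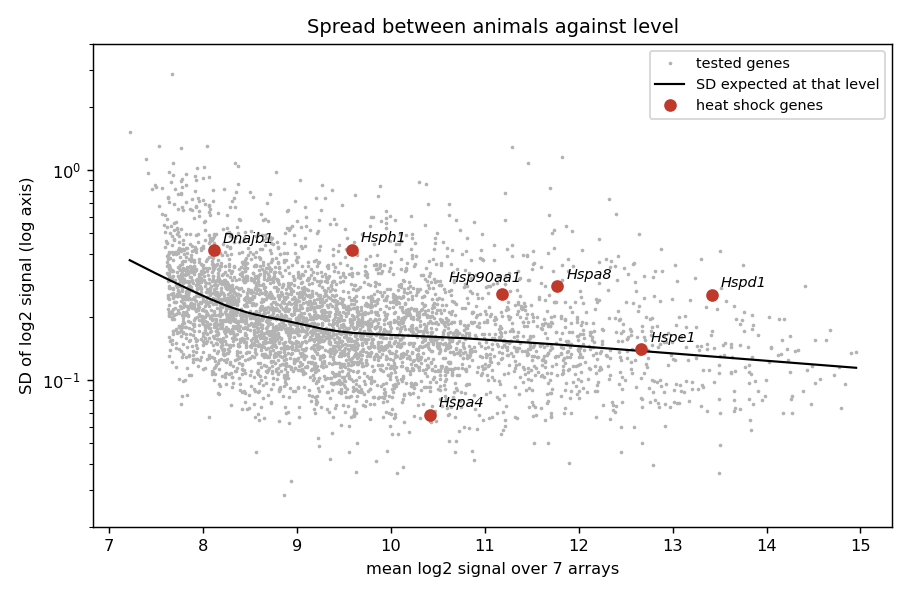
SD of log2 signal between the 7 arrays (log axis) against the mean log2 signal for 4481 tested genes (grey), with the SD expected at each level (black line) and the 7 tested heat shock genes (red). Of the 7, 6 lie above the line, Hsph1 at 0.42 where 0.17 was expected, and Hspa4 lies below it, at 0.07.

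The members moved together in part, and mostly through 1 animal. Over the 21 pairs of tested members the mean Pearson r across animals was 0.41, beside 0.001 over all 10037440 pairs of tested genes, and 19 of the 21 were above 0. One pair, Hsp90aa1 and Hspe1, reached an r of at least 0.8, which is 4.76% of the member pairs, against 1.69% of all pairs. Without replicate 8 the mean r of the members was -0.02 and 11 of 21 pairs were above 0, and with all probe sets of a gene averaged the mean was 0.19. No pair passed after adjustment over the 21, and 1 had an unadjusted exact permutation p under 0.05. That pair was Hsp90aa1 and Hspe1, with r = 0.814 (exact permutation p = 0.024, adjusted p = 0.496) and rho = 0.821. It kept r = 0.856 without replicates 1 and 3 and 0.827 with the spike-in set means removed, and it was 0.78 without replicate 8. Pairs of the Hsp70 system behaved otherwise. Hspa4 and Hsph1 had r = 0.709 (exact permutation p = 0.118, adjusted p = 0.497) and rho = 0.000, and without replicate 8 r was -0.44. For Hsph1 and Dnajb1 r was 0.640 (exact permutation p = 0.108) and 0.01 without replicate 8. For Hspa8 and Hsph1 it was 0.488 and -0.21. The values for these 3 pairs of the Hsp70 system thus rested on replicate 8. Dnajb1 and Hspe1, by contrast, had r = 0.705 (exact permutation p = 0.095) with all arrays and 0.72 without replicate 8, but -0.238 without replicates 4 and 8.

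**Figure D5:**
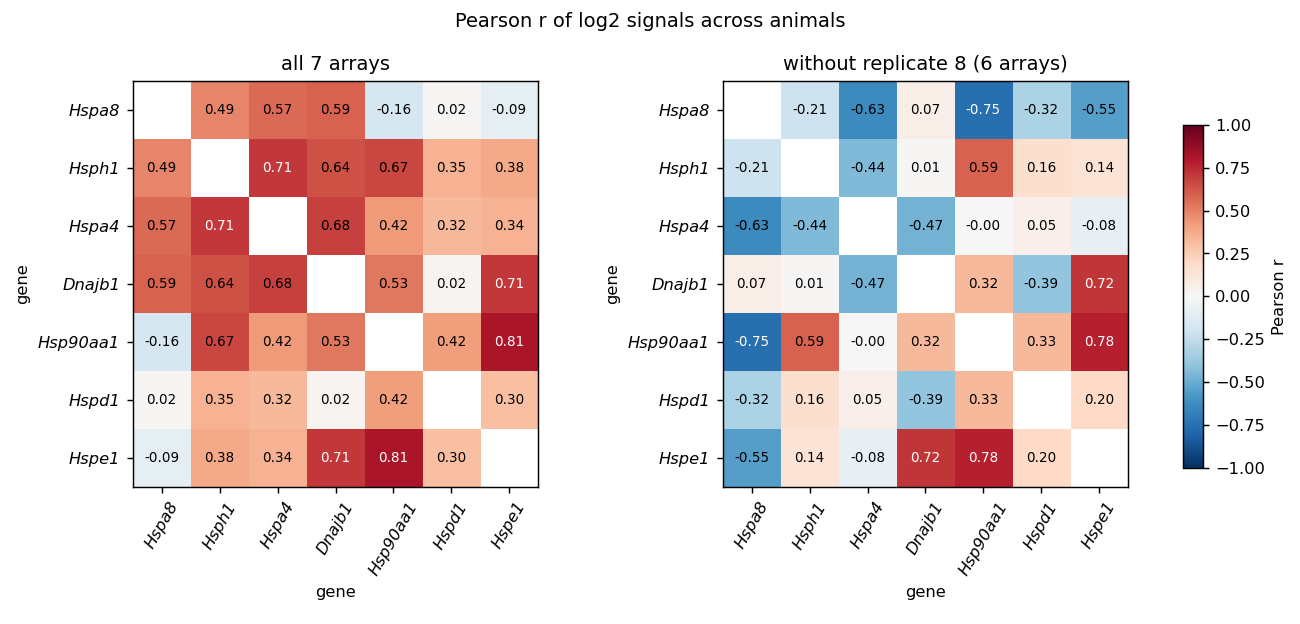
Pearson r of log2 signals across animals for each pair of the 7 tested heat shock genes, with all 7 arrays (left) and without replicate 8 (right). The mean over the 21 pairs is 0.41 on the left and -0.02 on the right, and Hsp90aa1 with Hspe1 stays high, at 0.81 and 0.78.

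Interferon response genes were high on the same animals as some members. The score of that list, a mean of log2 deviations over 12 tested genes, was 0.70 on replicate 1, 0.61 on replicate 8 and between -0.50 and 0.06 on the other 5. Its r was 0.845 with Hsp90aa1 (exact permutation p = 0.023, rho = 0.714), 0.804 with Hsph1 (exact permutation p = 0.021, rho = 0.821) and 0.765 with Hspe1 (exact permutation p = 0.045, rho = 0.750). Without the 2 arrays farthest from each member's median these were 0.779, 0.756 and 0.852, and with the spike-in set means removed 0.846, 0.817 and 0.770. Among 105 relations of members with list scores, these 3 were the ones with an unadjusted p under 0.05, where chance gives about 1 in 20. Each had an adjusted p of 0.929. For the remaining members r with the interferon score was lower, at 0.664 for Dnajb1, 0.490 for Hspd1, 0.436 for Hspa4 and 0.170 for Hspa8. The summed signal of the 13 measured interferon genes was 26959 on replicate 1 and 24691 on replicate 8, against 12242 to 16409 on the others. Whether it had a part in the members' values was not tested. None of the 7 cell type marker lists with a score was at its highest on replicate 8, where the hepatocyte score (-0.12) and the skeletal muscle score (-0.80) were lowest. The muscle score was 1.85 on replicate 1 and 1.18 on replicate 2, where Hsp90aa1 was also high (r = 0.610, exact permutation p = 0.211). With the spike-in set means removed this r was 0.804, and without replicates 1 and 3 it was 0.393. Hsp90aa1 was as high on replicate 8, where the summed muscle signal was the smallest, 2516 against 12913 on replicate 1. Whether muscle RNA had a part in the values of Hsp90aa1 was not tested. The score of clock genes in the Per and Dbp phase was highest on replicate 8 and lowest on replicate 4, at 0.13 and -0.32. Dnajb1 had the same highest and lowest arrays (r = 0.809, exact permutation p = 0.053, adjusted p = 0.929), but r was -0.079 without those 2 arrays. The 9 genes of this score did not move as 1, with a mean pairwise r of 0.11. Of them 3, Per2, Usp2 and Bhlhe40, were highest on replicate 8, while Per3 and Nr1d1 were lowest there.

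Genes most like the members were named by Pearson's r over the 7 arrays, as a description only. For the mean profile of the 7 members they were Ss18, Ctss, Strn3, Nampt, Atp6v1d, Cxcl9, Irgm1 and Gbp3, with r from 0.93 to 0.95. None of the 8 is a chaperone, and Irgm1 and Gbp3 are on the interferon list. Cxcl9, a chemokine induced by interferon gamma, was also the nearest gene to Hsph1, with 848 on replicate 8, 403 on replicate 1 and 159 to 334 on the others (r = 0.97). Nearest to Hspa4 was Glo1, a glyoxalase, with 6057 on replicate 8 and 2705 to 3341 on the others (r = 0.94). Other nearest genes were Tubg1 for Hspa8, Ppp3ca for Hsp90aa1, Ttc30b for Dnajb1, Ccdc90b for Hspd1 and Eif2s3x for Hspe1, with r from 0.94 to 0.99.

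Cochaperones and heat shock factors showed no common order of animals among themselves, and some were highest on replicate 8. Of 64 listed genes 48 were measured and 35 tested. In the limma-based F test 0 of the 35 passed after adjustment and 2 had an unadjusted p under 0.05, beside 6.72% of all tested genes. Their median log2 SD was 0.22, and 25 of 35 had an SD above the expected one, beside 49.1% of all tested genes. Their mean pairwise r was -0.01, and 6 of 35 (17.1%) were highest on replicate 8, beside 13.7% of all tested genes. Their median r with the mean profile of the members was 0.165, beside -0.025 for the other tested genes, and 0 of 35 reached 0.8, near the 1.56% of the others that did. The 2 genes were Bag2, a regulator of Hsp70 and of the ubiquitin ligase Stub1, at 517 ± 223 with a log2 SD of 0.64, and Fkbp5, an Hsp90 cochaperone that glucocorticoids induce, at 1153 ± 375 with 0.46. Bag2 was highest on replicates 3 and 4, at 792 and 831, and lowest on replicate 2, at 246, from a probe set with the suffix _r_at. Fkbp5 was highest on replicate 6, at 1839, and lowest on replicate 3, at 708.

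The other listed genes named by spread or level each had their own order. Chordc1, an Hsp90 partner that heat induces, ranged from 454 on replicate 1 to 946 on replicate 8, with replicate 6 next at 931, as for Hspa1b. Dnaja1, another J-domain partner of Hsp70, ran from 2583 on replicate 1 to 4074 on replicate 7. Dnajb4, a relative of Dnajb1, ran from 112 on replicate 1 to 291 on replicate 2. Hsbp1, a small protein that binds heat shock factor 1, was lowest on replicate 8, at 506, and highest on replicate 3, at 810. The bright genes of the list were Fkbp8 at 4163 ± 455, the small heat shock protein Hspb8 at 4044 ± 638, the mitochondrial Hsp70 gene Hspa9 at 4001 ± 294 and the Hsp90 immunophilin Fkbp4 at 3743 ± 601. Hspb8 was highest on replicate 8 and Fkbp8 lowest there. Hspa9, the mitochondrial partner of Hspd1 and Hspe1 in folding, varied little, with a log2 SD of 0.11. Of the 13 listed genes below the filter, Hspa2 and Dnajb5 were below the floor on all 7 arrays. Hsf1 had no value of its own here, and Hsf2 and Hsf4 had means of 24.7 and 47.5, below the floor.

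Other chaperone lists give a frame for the members' values. The 14 tested genes of the endoplasmic reticulum list had a median log2 SD of 0.24 and a mean pairwise r of 0.22, and the 8 tested subunits of the TCP-1 ring, which folds actin and tubulin, had 0.15 and 0.06. For the members these were 0.26 and 0.41, but 0.14 and 0.19 with all probe sets averaged, and the mean r was -0.02 without replicate 8. Over all tested genes they were 0.18 and 0.001, and no difference between lists was tested.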

How the data were processed

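The authors deposited linear intensities, 1 value for each probe set of an array, and per the labels the arrays were read with a Hewlett-Packard GeneArray scanner. Which software and scaling made them is not given in the sources used here. In all there were 12488 probe sets, 66 of them controls. Platform annotation gave 10833 a single gene symbol, and other probe sets were left unused. Arrays were scaled to 1 trimmed mean (2% at each end), floored at 0.1 of it and put on the log2 scale, and a gene was represented by its probe set of highest mean. The spread test was an intercept-only limma 3.58.1 fit (R 4.3.3), each variance set against a robust prior that follows the level (5.61 degrees of freedom), with Benjamini-Hochberg adjustment over all 4481 genes at 0.05. Tested on simulated data, it recovered only very large rises in SD after adjustment. Correlations were tested two-sided by exact permutation, enumerating 5040 pairings (Python 3.11.15, numpy 2.4.6, scipy 1.17.1) and were adjusted within each family. The number of arrays limits the precision.

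Members and lists were chosen with earlier results of these data known. Genes were named by rule: all members, the 6 cochaperones of largest SD over expected SD, the 4 of highest mean, the 8 genes nearest to the mean profile and the 2 nearest to each member, of which the first is given. Hspa1a, the listed genes below the floor and the example hepatocyte markers were chosen after their values were seen. Alternatives were other scalings, floors, filters, probe set averaging, priors, the spike-in set as a term, and leaving out arrays. The correlations of Hspa1b were added after seeing the data.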

Additional observations from a re-analysis of the deposited data

Results flagged for a closer look

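The signal of Hspa4 on replicate 8, 1517, was set apart from the other 6 arrays, which lay between 1320 and 1372. The gap made up 0.733 of the whole range. This check was made on 15 member probe sets, 10 cochaperone genes and the mean profile of the members, and chance sets apart about 1 in 20 such groups. Among all tested genes of these data it set apart 6.2%.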

How the results depend on the processing

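No member and no cochaperone passed the spread test under any of 21 alternatives. On simulated data this test recovered 0 genes at an SD raised 5 times, so that count carries little weight. Over all genes, 1 gene (Acta1, no member) passed when an offset replaced the floor, and 0 to 1 when each array was left out. The median log2 SD of the members was 0.14 with all probe sets averaged, below the 0.18 of all genes tested that way, against 0.26, since the dim probe sets of Hsp90aa1 and Hspd1 then enter. It was 0.25 to 0.28 when each array was left out. The mean pairwise r of the members ranged from -0.023 (without replicate 8) to 0.477 (without replicate 1) when each array was left out, and was 0.51 with the spike-in set as a term and 0.19 with all probe sets averaged. The count of member pairs that passed was 1 with a filter of 0.2 and 1 with no filter, each time Hspa8 and Hspa1b, and 0 under the other 17 alternatives. Hspa1b reached the filter of 0.2 only through replicates 6 and 8, the arrays on which it was high, so that count is no separate support. Correlations of member pairs that were not called did change sign. For Hspa8 and Hspa4 r was 0.566 with all arrays and -0.634 without replicate 8. Of the 21 pairs, 19 were above 0 with all arrays and 11 without replicate 8. Relations of members with array measures and list scores that passed numbered 0 under all 19 alternatives run. No paired analysis was possible because the samples form 1 group. Signals near the floor, as for Hspb1, cannot be told from background.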
